A study of Homo sapiens with 24 samples.

Results

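The comparison described here sets cultures given dexamethasone at 100 nM in the presence of enzalutamide against cultures given enzalutamide alone. It holds 6 of the 24 arrays of the series, 3 per group, chosen by their treatment labels. All cultures were LREX' cells, an established human prostate cancer line. It descends from LNCaP cells engineered to express extra androgen receptor, outgrew enzalutamide treatment in mice, and carries abundant glucocorticoid receptor. Every culture was kept in medium depleted of steroids and exposed to its drugs for 8 h. The Enza + Dex 100 nM group received enzalutamide together with the synthetic glucocorticoid dexamethasone at 100 nM, and the Enza group received enzalutamide at 10 µM. The labels give no enzalutamide dose for the combinations. The other groups used here, also of 3 arrays each, were Enza + Dex 10 nM, Enza + DHT 1 nM (the androgen dihydrotestosterone), Dex 100 nM and DHT 1 nM without enzalutamide, and the DMSO vehicle. The triplicates are described as biological, but they come from 1 cell line, so every p-value measures the spread between cultures of that line.

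The glucocorticoid receptor, encoded by NR3C1, is a ligand-activated transcription factor. Dexamethasone binds it in the cytoplasm, the receptor moves to the nucleus, and there it binds DNA elements shared in part with the androgen receptor. Enzalutamide occupies the ligand pocket of the androgen receptor and prevents its activation by androgens, without being a glucocorticoid receptor antagonist. The comparison asks which genes a high glucocorticoid dose controls while the androgen receptor is blocked.

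Levels are normalized log2 probe signals, so a difference of 1 is a doubling, and levels are compared only for the same probe. The 6 arrays had median raw signals of 60.2 to 68.3 and 19463 to 21017 detected probes. Of 24 luminal prostate epithelium markers on the array, 21 were detected on all 3 Enza + Dex 100 nM arrays and 20 on all 3 Enza arrays; KRT19 was undetected on all 6. Their summed linear signals were 33918 to 37659 with Enza + Dex 100 nM and 33120 to 34848 with Enza. Defining markers of other cell types were undetected on all 6 arrays, among them the basal keratins KRT5 and KRT14, the neuroendocrine CHGA and SYP, the endothelial PECAM1 and the leukocyte PTPRC. ITGA6 was the 1 of 9 basal markers, SCG5 and DDC the 2 of 13 neuroendocrine markers, and CD68, FCGR3A and HLA-DRA the 3 of 17 immune markers detected on all 3 arrays of each group. Of 22 stromal and endothelial markers, 6 were, among them ACTA2, which rose as described further on. In bulk RNA a change in the share of cells and a change in RNA per cell cannot be told apart.

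Dexamethasone at 100 nM under enzalutamide raised 287 genes and lowered 152, out of 12895 tested. In all, 439 genes were called, meaning a limma adjusted p under 0.05, which is 3.4% of the genes tested (2.23% higher and 1.18% lower). The response was led by rises: 69 genes rose and 1 fell at least 2-fold, and 162 rose and 25 fell at least 1.5-fold. In 437 of the 439 called genes the 3 Enza + Dex 100 nM arrays lay wholly on one side of the 3 Enza arrays. Over all genes tested, such separation occurred upward in 7.76% and downward in 9.76%. The median log2 change of all genes was -0.02, and the median standard error of a change was 0.12. With only these 6 arrays in the fit, 168 genes were called, 143 higher and 25 lower, so the split moved to 85.1% higher against 65.4%. The plot of the 15 largest rises gives every array.

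**Figure D1:**
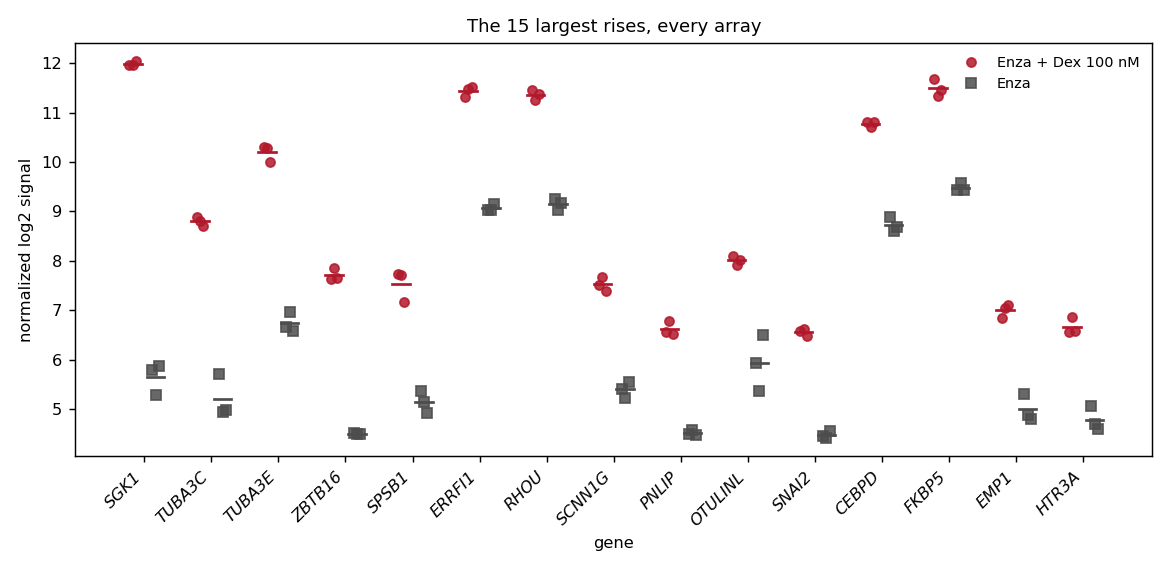
Normalized log2 signal of each array for the 15 genes with the largest called rises. Red circles are the 3 Enza + Dex 100 nM arrays, grey squares the 3 Enza arrays, and bars the group means; in every gene shown the groups do not overlap, and SGK1 is the gene with the widest gap (log2 change 6.35).

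SGK1, a survival kinase that also stimulates epithelial sodium uptake, gave the largest change. Its levels were 11.96, 11.97 and 12.04 with Enza + Dex 100 nM, against 5.78, 5.27 and 5.88 with Enza. The 3 treated arrays nearly coincided, and all lay far above the Enza arrays, which were detected but close to the detection limit. The rise was 81.5-fold (log2 6.35 ± 0.12 SE, n = 3 per group, limma adjusted p = 2.69e-18), and its 3 probes gave log2 changes of 5.98 to 6.35.

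Several further leading rises were textbook glucocorticoid targets that restrain signalling or transcription. ZBTB16, a zinc-finger repressor, had levels of 7.62, 7.86 and 7.66 with Enza + Dex 100 nM, against 4.50, 4.48 and 4.49 with Enza. This probe was undetected on every Enza array, so its rise is at least 6.45-fold (limma adjusted p = 5.9e-13). Another ZBTB16 probe detected the gene on 2 of 3 Enza arrays and moved by 0.39, and the other remaining probe moved by 2.22. ERRFI1, an inhibitor of the EGF receptor, had levels of 11.31, 11.48 and 11.53 with Enza + Dex 100 nM, against 9.02, 9.04 and 9.15 with Enza. Both groups were tight and well apart, and the rise was 5.17-fold (log2 2.37 ± 0.09, limma adjusted p = 2.31e-13). SPSB1, a ubiquitin-ligase adaptor, had levels of 7.74, 7.71 and 7.16 with Enza + Dex 100 nM, against 5.36, 5.15 and 4.91 with Enza, a 5.27-fold rise in which replicate 3 was the lowest treated array.

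FKBP5, a co-chaperone that lowers hormone binding by steroid receptors, is induced by both glucocorticoids and androgens. It had levels of 11.69, 11.33 and 11.46 with Enza + Dex 100 nM, against 9.43, 9.57 and 9.43 with Enza. All treated arrays were higher, by 4.05-fold on average (log2 2.02 ± 0.08, limma adjusted p = 9.55e-13). CEBPD, a transcription factor of the acute-phase response, had levels of 10.81, 10.70 and 10.81 with Enza + Dex 100 nM, against 8.90, 8.61 and 8.69 with Enza, a 4.13-fold rise. TSC22D3, known as GILZ and a mediator of anti-inflammatory glucocorticoid action, moved less but very evenly. Its levels were 9.35, 9.36 and 9.29 with Enza + Dex 100 nM, against 8.64, 8.66 and 8.60 with Enza, a 1.63-fold rise (limma adjusted p = 6.09e-06).

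The next largest rises came from genes of varied function. SCNN1G, the gamma subunit of the epithelial sodium channel, had levels of 7.52, 7.67 and 7.39 with Enza + Dex 100 nM, against 5.40, 5.23 and 5.55 with Enza, a 4.38-fold rise (limma adjusted p = 1.11e-09). RHOU, an atypical small GTPase, rose 4.63-fold, with levels of 11.46, 11.26 and 11.38 with Enza + Dex 100 nM, against 9.26, 9.03 and 9.18 with Enza. The groups were apart in both genes. HTR3A, a serotonin-gated ion channel, had levels of 6.56, 6.86 and 6.58 with Enza + Dex 100 nM, against 5.06, 4.70 and 4.59 with Enza, where it was detected on 1 of 3 arrays (log2 1.89 ± 0.20). EMP1, an epithelial membrane protein, was likewise detected on 1 of 3 Enza arrays and rose by 2.01 ± 0.17 on the log2 scale, and OTULINL rose 4.27-fold.

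PNLIP, pancreatic lipase, and SNAI2, a repressor of epithelial genes, were undetected on all 3 Enza arrays. PNLIP had levels of 6.55, 6.78 and 6.51 with Enza + Dex 100 nM, against 4.49, 4.58 and 4.48 with Enza, a rise of at least 3.01-fold (limma adjusted p = 6.91e-12). SNAI2 had levels of 6.59, 6.62 and 6.47 with Enza + Dex 100 nM, against 4.45, 4.42 and 4.54 with Enza, a rise of at least 2.89-fold (limma adjusted p = 3.42e-13). Both were detected on every treated array, so they were switched from below to above the array's detection limit. The alpha-tubulin genes TUBA3C and TUBA3E rose by 3.60 ± 0.16 and 3.47 ± 0.11 on the log2 scale, with TUBA3C detected on 1 of 3 Enza arrays. These genes and TUBA3D are near-identical copies, and the 2 probes of TUBA3D gave 1.32 and 3.17, so which copy responded is uncertain.

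Of 39 measured genes on a list of glucocorticoid-induced genes, 24 rose (61.5%, against 2.23% of all genes) and none fell. The median log2 change was 0.59, against -0.02 over all genes. RASD1, a small GTPase first found as dexamethasone-induced, rose 3.45-fold, with levels of 7.55, 7.62 and 7.56 with Enza + Dex 100 nM, against 6.26, 5.32 and 5.81 with Enza. The treated arrays agreed closely while the Enza arrays were spread. DUSP1, a phosphatase that switches off MAP kinases, rose by 0.81 ± 0.09 on the log2 scale, the transcription factor KLF9 by 0.80 ± 0.06, and DDIT4, an inhibitor of mTORC1, by 0.94 ± 0.08. The 15 members that were not called ranged down to -0.43, and included TIPARP, a mono-ADP-ribosyltransferase, at 0.22 ± 0.08 (limma adjusted p = 0.189). The list was assembled with earlier results of these arrays known, so its direction is a description.

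Many androgen-induced genes rose too, with enzalutamide present. Of 33 measured members 16 rose (48.5%, against 2.23% of all genes) and none fell, with a median log2 change of 0.57. FKBP5 is on both lists, and SNAI2 and RHOU, given above, are members too. SLC45A3, a prostate solute carrier also called prostein, had levels of 8.81, 8.72 and 8.67 with Enza + Dex 100 nM, against 6.94, 6.82 and 6.86 with Enza, a 3.62-fold rise (log2 1.86 ± 0.07, limma adjusted p = 2.31e-13). KLK4, a kallikrein protease, had levels of 10.71, 10.68 and 10.76 with Enza + Dex 100 nM, against 9.40, 9.11 and 9.43 with Enza, a 2.64-fold rise. In both genes the groups were far apart. KLK2, a kallikrein secreted by the prostate, had levels of 6.17, 6.57 and 6.34 with Enza + Dex 100 nM, against 4.56, 4.52 and 4.65 with Enza, where it was undetected, a rise of at least 2.52-fold (limma adjusted p = 3.29e-08).

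Others of that list moved less. TMPRSS2, an androgen-regulated membrane protease, had levels of 8.78, 8.83 and 8.58 with Enza + Dex 100 nM, against 7.81, 7.75 and 7.91 with Enza, a 1.87-fold rise (log2 0.91 ± 0.11, limma adjusted p = 9.95e-06). NDRG1, a stress-responsive metastasis suppressor, rose 1.83-fold, and STEAP2, a metalloreductase, 2.36-fold. PMEPA1, which dampens TGF-beta signalling, rose 2.69-fold, with 2 of the 3 Enza arrays detected. KLK3, which encodes prostate-specific antigen, was not called (log2 0.41 ± 0.26, limma adjusted p = 0.537). It was at 5.65, 4.80 and 4.62 with Enza + Dex 100 nM, against 4.64, 4.73 and 4.45 with Enza, overlapping and detected on 1 array only, Enza + Dex 100 nM replicate 1.

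The androgen DHT was tested under enzalutamide as well. DHT at 1 nM under enzalutamide gave no called gene against Enza (limma, 0 of 12895, 0%; 427 at an unadjusted p under 0.05). Without enzalutamide it gave 548 against vehicle (4.25%), 316 of them higher (2.45%) and 232 lower (1.8%). Of the 33 androgen-induced genes, DHT raised none with enzalutamide (median log2 0.06) and 18 without it (median 0.90). The direct comparison of Enza + Dex 100 nM with Enza + DHT 1 nM, both under enzalutamide, called 403 genes (3.13%), 286 higher (2.22%) and 117 lower (0.907%). Among the 33 androgen-induced genes 17 were higher with dexamethasone and none lower. SLC45A3 was higher by 1.68 ± 0.07 on the log2 scale (limma adjusted p = 8.12e-13), KLK4 by 1.34 ± 0.09, TMPRSS2 by 0.81 ± 0.11 and NDRG1 by 0.84 ± 0.09. SGK1 was higher by 6.16 ± 0.12 and NR3C1 lower by a log2 change of -1.16 ± 0.19. This comparison and that with Enza share the Enza + Dex 100 nM arrays.

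Promoter sequences of some of these genes are shown because their members moved together, taken from RefSeq on GRCh38.p14 as windows of 250 bases before to 50 after an annotated start. The classical palindromic receptor element (AGNACA, 3 free bases, TGTNCT), which reads the same on both strands, was in none of the windows of 234 genes called higher, of 123 called lower or of all 10227 genes tested that have a window (23 of 27305 genes in the whole table, 0.0842%). Its core, ACANNNTGT, was in 18 of 234 genes called higher (7.69%), 6 of 123 called lower (4.88%) and 462 of 10227 tested (4.52%). An asymmetric element (NGAACA, 3 free bases, AGTGCT), searched on both strands, was in 1 of 234 genes called higher (0.427%), KLK2, in 0 of 123 called lower and in 6 of 10227 tested (0.0587%). Every palindromic element holds the core, which reads the same on both strands, and an asymmetric element never does. The core and the asymmetric element were chosen after the first search had been seen. The share of the asymmetric element among genes called higher rests on KLK2 alone, so it is a description, and enrichment was not tested. In the KLK2 window, chr19:50873189-50873488 on the plus strand, capitals mark the asymmetric element at -176 to -162 from the start. TSC22D3 has windows at several annotated starts, all on the minus strand. In the window shown, chrX:107775738-107776037, capitals mark the core at -208 to -200. The same site lies at -7 to 2 in another window, chrX:107775939-107776238. The windows chrX:107717013-107717312 and chrX:107716459-107716758 hold no core. For SGK1, the gene with the largest rise, 1 of its windows is shown, chr6:134174817-134175116. For FKBP5, a gene of both hormone lists, 1 of its windows is shown, chr6:35688866-35689165. Both are on the minus strand, and no window of either gene holds either set of letters. A match describes letters only, and these windows leave out distal enhancers.
KLK2: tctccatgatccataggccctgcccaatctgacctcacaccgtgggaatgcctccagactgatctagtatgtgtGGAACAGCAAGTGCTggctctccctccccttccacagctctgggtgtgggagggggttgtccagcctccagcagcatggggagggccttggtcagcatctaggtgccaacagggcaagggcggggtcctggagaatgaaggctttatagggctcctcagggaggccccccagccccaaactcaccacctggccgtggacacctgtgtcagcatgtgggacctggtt
TSC22D3: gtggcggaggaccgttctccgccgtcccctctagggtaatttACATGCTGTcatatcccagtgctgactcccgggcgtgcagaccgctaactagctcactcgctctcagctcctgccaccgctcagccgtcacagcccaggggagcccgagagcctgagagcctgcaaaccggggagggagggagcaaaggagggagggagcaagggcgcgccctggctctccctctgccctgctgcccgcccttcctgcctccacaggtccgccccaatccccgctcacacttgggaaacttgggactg
SGK1: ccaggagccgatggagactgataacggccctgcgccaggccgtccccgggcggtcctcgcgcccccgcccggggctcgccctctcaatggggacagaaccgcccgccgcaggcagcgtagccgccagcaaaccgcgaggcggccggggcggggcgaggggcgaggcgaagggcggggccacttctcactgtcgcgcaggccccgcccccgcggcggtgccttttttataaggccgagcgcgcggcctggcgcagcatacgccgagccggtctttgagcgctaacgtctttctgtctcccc
FKBP5: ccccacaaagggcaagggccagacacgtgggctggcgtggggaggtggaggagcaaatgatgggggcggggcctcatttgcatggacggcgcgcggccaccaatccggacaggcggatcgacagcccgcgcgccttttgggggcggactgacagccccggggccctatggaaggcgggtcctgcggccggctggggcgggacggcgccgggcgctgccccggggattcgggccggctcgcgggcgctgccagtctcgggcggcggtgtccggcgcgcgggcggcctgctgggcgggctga

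Falls were smaller than rises, and the plot of the 15 largest shows them array by array. NR3C1, which encodes the glucocorticoid receptor itself, was the only called gene to fall at least 2-fold. Its levels were 5.48, 5.09 and 5.90 with Enza + Dex 100 nM, against 6.55, 6.40 and 6.80 with Enza. The treated arrays were detected but near the detection limit. The lowest, replicate 2, was close to that array's lowest detected signal of 5.03. The groups did not overlap, and the fall was 2.14-fold (log2 -1.10 ± 0.19, limma adjusted p = 0.00105). The other NR3C1 probe, near the detection limit, moved by 0.16 ± 0.16, and the NR3C1 call was lost with the mean of both probes (limma adjusted p = 0.0565) and in a fit of these 6 arrays alone (0.0711). The receptor gene NR3C2, for mineralocorticoids, was not called (log2 0.22 ± 0.08, limma adjusted p = 0.19).

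**Figure D2:**
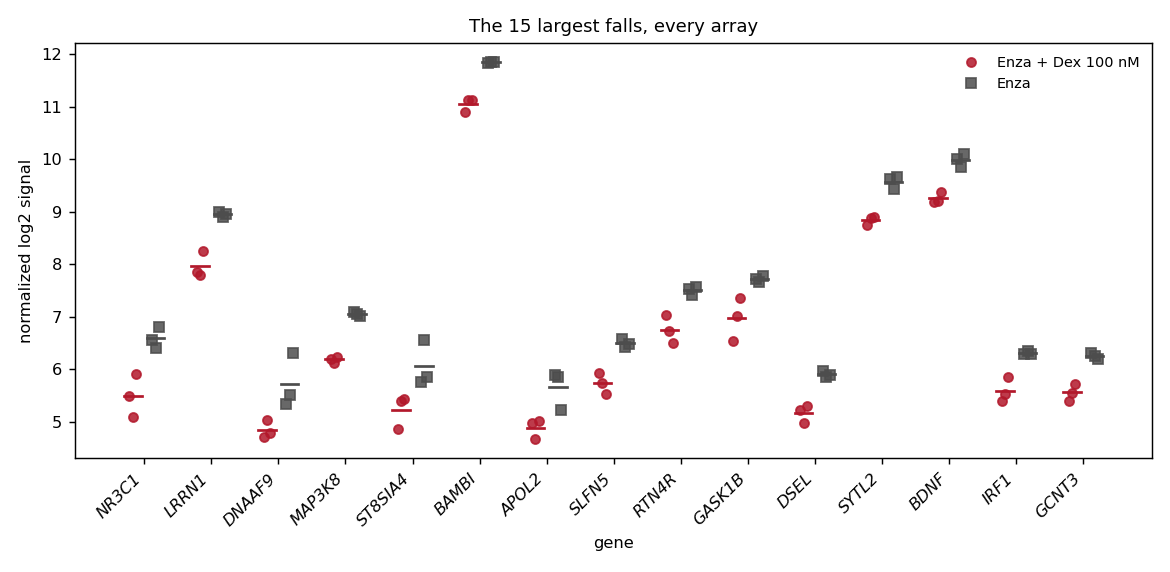
Normalized log2 signal of each array for the 15 genes with the largest called falls. Red circles are the 3 Enza + Dex 100 nM arrays, grey squares the 3 Enza arrays, and bars the group means; NR3C1 shows the largest fall (log2 change -1.10), and BAMBI the tightest Enza arrays.

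The other called falls were under 2-fold. MAP3K8, a kinase upstream of MAP kinases and NF-kB, had levels of 6.20, 6.12 and 6.23 with Enza + Dex 100 nM, against 7.09, 7.05 and 7.01 with Enza, a 1.83-fold fall (limma adjusted p = 3.41e-07). BAMBI, a pseudoreceptor that blocks TGF-beta and BMP signals, had levels of 10.91, 11.14 and 11.13 with Enza + Dex 100 nM, against 11.84, 11.85 and 11.86 with Enza, a 1.73-fold fall (limma adjusted p = 8.18e-06). LRRN1, a leucine-rich repeat membrane protein, had levels of 7.84, 7.79 and 8.26 with Enza + Dex 100 nM, against 8.98, 8.89 and 8.96 with Enza, with replicate 3 the highest treated array. All 3 genes were separated between the groups. IRF1, an interferon regulatory factor, fell by 0.72 on the log2 scale, RTN4R, the Nogo receptor, by 0.76, and DSEL, which modifies dermatan sulfate, by 0.74. In 6 further falls the call was lost when 1 array was left out. The largest adjusted p then was 0.133 for APOL2, which by its probe fell at least 1.55-fold, 0.137 for DNAAF9, 0.116 for GCNT3, 0.0783 for GASK1B, 0.0733 for SLFN5 and 0.0992 for ST8SIA4. The arrays concerned were any but Enza + Dex 100 nM replicate 3 for GCNT3, Enza replicates 1 and 2 and Enza + Dex 100 nM replicates 1 and 2 for APOL2, and Enza + Dex 100 nM replicates 1 and 3 and Enza replicate 3 for DNAAF9. For GASK1B they were Enza + Dex 100 nM replicate 1 and Enza replicate 3, for SLFN5 Enza replicate 1 and Enza + Dex 100 nM replicate 3, and for ST8SIA4 Enza + Dex 100 nM replicate 1 and Enza replicate 2. The other APOL2 probe, detected on 1 Enza + Dex 100 nM array and no Enza array, moved by 0.006. The APOL2 call was also lost with the mean of its probes.

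Of 20 measured androgen-repressed genes 6 fell (30%, against 1.18% of all genes) and none rose, with a median log2 change of -0.17. NR3C1 is on that list. SYTL2, a vesicle-docking protein, had levels of 8.75, 8.88 and 8.89 with Enza + Dex 100 nM, against 9.63, 9.43 and 9.67 with Enza (log2 -0.74, limma adjusted p = 2.92e-05). BDNF, a neurotrophin, had levels of 9.19, 9.21 and 9.37 with Enza + Dex 100 nM, against 10.01, 9.85 and 10.09 with Enza (log2 -0.72 ± 0.09). In both the groups were apart; the SYTL2 call was lost with the mean of all its probes. CAMK2N1, an inhibitor of CaM kinase II, fell by 0.47 on the log2 scale, NAPEPLD, which makes N-acylethanolamines, by 0.46, and LIPG, endothelial lipase, by 0.36. CAMK2N1, NAPEPLD and LIPG lost their calls in a fit of these 6 arrays alone (limma adjusted p = 0.0954, 0.121 and 0.121). The orphan nuclear receptor NR4A2 was not called (log2 -0.50, limma adjusted p = 0.113).

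Some sodium and potassium transport genes rose, while most of the list was not called. Of 18 measured members 5 rose (27.8%, against 2.23% of all genes), none fell and 13 were not called, with a median of 0.06 over the list. Besides SGK1 and SCNN1G, STK39, the kinase SPAK that regulates chloride cotransporters, rose 2.31-fold, with levels of 11.71, 11.70 and 11.59 with Enza + Dex 100 nM, against 10.53, 10.47 and 10.36 with Enza. NEDD4L, the ubiquitin ligase that removes epithelial sodium channels and is inhibited by SGK1, rose 2.16-fold, with levels of 8.43, 8.29 and 8.51 with Enza + Dex 100 nM, against 7.37, 7.37 and 7.17 with Enza. SCNN1A, the channel's alpha subunit, rose 1.26-fold (limma adjusted p = 0.000653). HSD11B2, which inactivates cortisol, rose 2.16-fold and was the only called gene of 12 in steroid metabolism, with levels of 9.80, 9.82 and 9.70 with Enza + Dex 100 nM, against 8.60, 8.58 and 8.82 with Enza.

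Of 18 circadian clock genes 4 rose (22.2%, against 2.23% of all genes), with a list median of 0.06. CRY2, a clock repressor, rose 2.15-fold, with levels of 8.64, 8.77 and 8.96 with Enza + Dex 100 nM, against 7.66, 7.65 and 7.73 with Enza. PER1, a clock repressor with glucocorticoid response elements, was spread: 5.94, 5.44 and 6.56 with Enza + Dex 100 nM, against 4.97, 4.58 and 4.65 with Enza, where it was detected on 1 of 3 arrays (log2 1.24 ± 0.23, limma adjusted p = 0.00237). The groups of both genes did not overlap. PER2 rose 1.59-fold, a call lost with the mean of its probes, and the clock output factor TEF rose 1.52-fold.

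A list of KLF, C/EBP and other transcription factors and regulators held 32 genes, some put there because they are known to be induced. Of these 11 rose (34.4%, against 2.23% of all genes) and 2 fell (6.25%, against 1.18%), with a median of 0.11. Besides ZBTB16, SNAI2 and CEBPD, KLF15, a regulator of amino acid metabolism, rose 3.01-fold, with levels of 7.92, 7.96 and 7.90 with Enza + Dex 100 nM, against 6.78, 6.01 and 6.23 with Enza. Its treated arrays were tight and its Enza arrays spread, and the groups were apart. GRHL2, an epithelial transcription factor, rose 1.56-fold.

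Of 25 genes on a list of actin cytoskeleton genes, serum response factor targets and tubulins 11 rose (44%, against 2.23% of all genes). None fell, and the list median was 0.30. Of the 11, 4 are tubulins, which form microtubules, and among them the 3 TUBA3 copies may share 1 signal. Without the tubulins, a division made after their values were seen, 7 of 19 rose, with a median of 0.22. RHOU is a further member. ACTA2, smooth muscle actin, rose 2.26-fold, with levels of 7.88, 8.12 and 8.02 with Enza + Dex 100 nM, against 6.70, 6.76 and 7.03 with Enza, and the groups did not overlap. ACTA2 is also a stromal marker, and of the 12 measured stromal and endothelial markers it was the only one to rise and VWF the only one to fall (log2 -0.59). The summed linear signal of those markers was 1456 to 1536 with Enza + Dex 100 nM and 1413 to 1472 with Enza. Of the 22 on the array, 10 were undetected on all 6 arrays, among them COL3A1, FAP, PDGFRA and PECAM1. The 6 detected on all 3 Enza + Dex 100 nM arrays were ACTA2, VWF, COL1A1, COL6A1, COL6A2 and VIM. Of 23 measured luminal markers 7 rose (30.4%, against 2.23% of all genes) and none fell. Among the 7 were the androgen-induced KLK2, KLK4, STEAP2 and SLC45A3.

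Some regulators of growth signalling changed, while most of each list was not called. Of 24 insulin, PI3K and mTORC1 regulators 6 rose (25%, against 2.23% of all genes) and 1 fell (4.17%, against 1.18%), with a median of 0.11. FOXO3, a transcription factor restrained by AKT, rose 1.83-fold, with levels of 11.70, 11.75 and 11.61 with Enza + Dex 100 nM, against 10.90, 10.76 and 10.78 with Enza. CASTOR1, an arginine sensor that inhibits mTORC1, rose 1.68-fold, and TSC2, another mTORC1 inhibitor, rose 1.44-fold, a call lost without Enza + Dex 100 nM replicate 1 or Enza replicate 3 (largest limma adjusted p = 0.0595). Of 27 MAPK feedback and immediate early genes 4 rose (14.8%) and 2 fell (7.41%), with a median of -0.03. PHLDA1 was 2.61-fold higher, and ERRFI1, DUSP1 and MAP3K8 moved as above. Of 21 TGF-beta, BMP and WNT feedback genes 1 rose (4.76%), PMEPA1, and 3 fell (14.3%), BAMBI, SMAD6 and ID3. The log2 change was -0.35 for SMAD6 and -0.27 for ID3. The ID3 call was lost without Enza replicate 1 or 3 or Enza + Dex 100 nM replicate 2 or 3 (largest limma adjusted p = 0.126).

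Of 25 NF-kB and inflammatory genes 6 rose (24%, against 2.23% of all genes) and 1 fell (4%, against 1.18%), with a median of -0.02. NFKBIA, the inhibitor of NF-kB, rose 1.78-fold, with levels of 11.95, 12.03 and 11.95 with Enza + Dex 100 nM, against 11.27, 11.14 and 11.02 with Enza. IL1R1, the interleukin-1 receptor, rose 1.77-fold, and IL6R, the interleukin-6 receptor, rose 2.60-fold with wide spread in both groups (log2 1.38 ± 0.28, limma adjusted p = 0.00593). Of 20 interferon response genes 2 rose (10%), the ubiquitin ligases HERC5 and HERC6. HERC5 rose 3.56-fold, with levels of 9.54, 9.55 and 9.50 with Enza + Dex 100 nM, against 7.75, 7.66 and 7.69 with Enza. The HERC6 call was lost without any array but Enza + Dex 100 nM replicate 2 (largest limma adjusted p = 0.107). Of 8 metallothionein list members 3 rose (37.5%): MT1X 1.48-fold, MT2A 1.29-fold and the zinc exporter SLC30A1 1.36-fold. MT2A lost its call without Enza replicate 3 (limma adjusted p = 0.06) and SLC30A1 without Enza replicate 1 (0.0784).

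Metabolic and proliferation lists held few called genes. No gene was called among 18 amino acid transporters, 12 polyamine genes or 25 MYC and ribosome biogenesis genes, against 3.4% of all genes. At that share, lists this small can hold none without differing from the other genes. SLC2A12, a glucose transporter, rose 1.93-fold and with HK2 made 2 rises among 23 glucose uptake and glycolysis genes (8.7%, against 2.23% of all genes); HK2 lost its call without Enza replicate 2 or Enza + Dex 100 nM replicate 3 (largest limma adjusted p = 0.116). Of 25 sterol and fatty acid synthesis genes 1 fell (4%, against 1.18% of all genes), the cholesterol exporter ABCG1 (1.61-fold). The ABCG1 call was lost with the mean of its probes. Of 24 endoplasmic reticulum folding genes 3 rose (12.5%): the chaperone DNAJB9 (log2 0.49), PDIA5 and EDEM1. PDIA5 lost its call without Enza replicate 3 (limma adjusted p = 0.0756), and EDEM1 without Enza replicate 2 or 3 or Enza + Dex 100 nM replicate 1 or 2 (largest limma adjusted p = 0.115). Of 27 S phase genes 1 fell (3.7%) and of 30 mitosis genes 3 fell (10%), against 1.18% of all genes, by 0.34 or less on the log2 scale, and all 4 lost their calls without at least 1 array. The largest limma adjusted p was 0.165 for CCNE1, 0.192 for PLK1, 0.133 for KIF2C and 0.154 for CENPA. Those arrays were any of the 6 for CENPA, any but Enza + Dex 100 nM replicate 1 for CCNE1, any but Enza + Dex 100 nM replicate 3 for PLK1, and any but Enza replicate 2 and Enza + Dex 100 nM replicate 3 for KIF2C. The plot of list members sets all lists side by side.

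**Figure D3:**
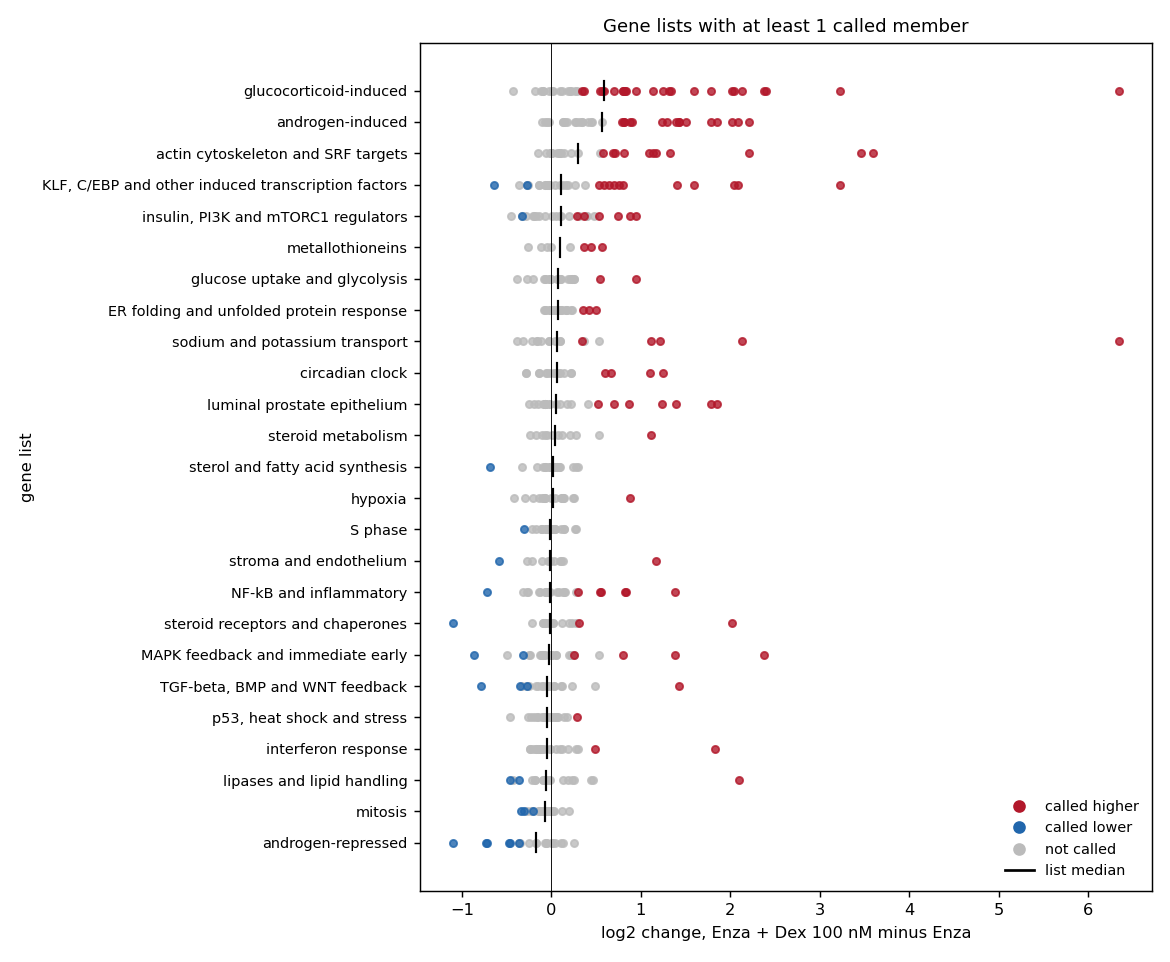
Log2 change (Enza + Dex 100 nM minus Enza) of each measured member of the gene lists that hold at least 1 called gene, with the lists ordered by median. Red points were called higher, blue points called lower and grey points not called, and the black bar is the list median; the glucocorticoid-induced (0.59), androgen-induced (0.57) and actin and tubulin (0.30) lists have the highest medians.

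The same dose was tested without enzalutamide, which asks whether blocking the androgen receptor altered the dexamethasone response. No gene differed past the test between Enza + Dex 100 nM and Dex 100 nM alone (limma, 0 of 12895, 0%; 1050 at an unadjusted p under 0.05; smallest adjusted p 0.109). Nor did any differ in its response, taken as the change with enzalutamide minus the change without (0%; 982 at an unadjusted p under 0.05; smallest adjusted p 0.247). The median standard error of that difference was 0.17 on the log2 scale, so modest differences could not be seen. Against vehicle, Dex 100 nM called 655 genes (5.08%), 372 higher (2.88%) and 283 lower (2.19%). Of the glucocorticoid-induced list it raised 27 and lowered 1, and of the androgen-induced list it raised 20. Of the 439 genes called under enzalutamide, 296 were also called there, all in the same direction, which is 67.4% of the 439 and 45.2% of the 655. These contrasts share no arrays. Over the 287 genes called higher the median log2 change was 0.66 with enzalutamide and 0.65 without, and over the 152 called lower -0.38 with and -0.24 without. The genes were picked on the change with enzalutamide, which favours that side.

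**Figure D4:**
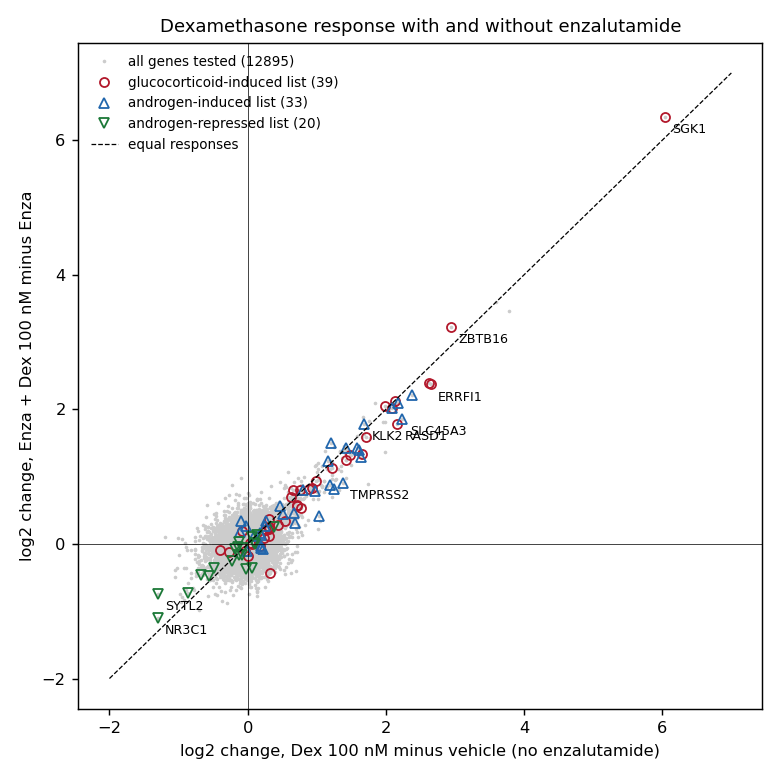
Log2 change by dexamethasone 100 nM under enzalutamide (Enza + Dex 100 nM minus Enza) against that without it (Dex 100 nM minus vehicle), with 1 grey point per gene tested. Coloured symbols mark the 3 hormone lists and the dashed line equal changes; SGK1 lies far out near that line (6.35 with and 6.03 without enzalutamide).

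Individual genes show the size of these limits. SGK1 differed by -0.01 on the log2 scale between Enza + Dex 100 nM and Dex 100 nM (95% interval -0.26 to 0.23), FKBP5 by -0.09 (-0.26 to 0.09), ERRFI1 by -0.14 (-0.32 to 0.04) and KLK2 by 0.03 (-0.26 to 0.32). For these genes the intervals of this difference in level leave out differences as large as 1.5-fold. The difference in response was less precise: 0.31 ± 0.16 for SGK1, -0.07 ± 0.12 for FKBP5 and -0.28 ± 0.12 for ERRFI1. For SGK1 its limits do not leave out 1.5-fold. SLC45A3 was at 8.73 ± 0.07 with Enza + Dex 100 nM and 9.09 ± 0.08 with Dex 100 nM (SD, n = 3 each). The difference of -0.36 had a 95% interval of -0.50 to -0.22, and it did not pass adjustment (limma adjusted p = 0.126). TMPRSS2 was at 8.73 ± 0.13 with Enza + Dex 100 nM and 9.09 ± 0.03 with Dex 100 nM, a difference of -0.36 (-0.58 to -0.14, limma adjusted p = 0.398). The difference in response was -0.38 for SLC45A3 (-0.58 to -0.19, adjusted p = 0.417), -0.47 for TMPRSS2 (-0.78 to -0.15, adjusted p = 0.561) and -0.32 for NDRG1 (-0.58 to -0.06). SYTL2 changed by -0.74 with enzalutamide and by -1.30 without, a difference of 0.57 (0.29 to 0.85, limma adjusted p = 0.313). None of these passed the test.

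Most members of both hormone-induced lists had slightly lower levels with enzalutamide present. Of the 33 androgen-induced genes, 25 (75.8%) were lower with Enza + Dex 100 nM than with Dex 100 nM, with a median difference of -0.09. Of the 39 glucocorticoid-induced genes, 28 (71.8%) were, with a median of -0.08. Over all genes tested 52.2% were lower, with a median of -0.01. For the difference in response, 21 of the 33 androgen-induced genes (63.6%) and 28 of the 39 glucocorticoid-induced genes (71.8%) were below 0, against 51.3% of all genes, with medians of -0.08 and -0.09. No member of either list was called, and the shares were read on the same arrays, so they are a description.

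Responses to DHT without enzalutamide overlapped with those to dexamethasone under it. Of the 439 genes called with Enza + Dex 100 nM against Enza, 198 were also called with DHT against vehicle, which is 45.1% of the 439 and 36.1% of the 548, and 195 of the 198 moved in the same direction. These contrasts share no arrays, but they too share each gene's estimate of spread. Gene by gene the sizes differed. TMPRSS2 changed by 0.91 on the log2 scale with dexamethasone under enzalutamide and by 2.30 with DHT. In the same order NDRG1 changed by 0.88 and 2.03, and LIPG by -0.36 and -1.55. SGK1 changed by 6.35 with dexamethasone under enzalutamide and by 3.46 with DHT. KLK4 changed by 1.40 and 1.41. DDIT4 rose by 0.94 with dexamethasone under enzalutamide and was at -0.31 with DHT. The difference between these responses was not tested.

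The lower dose under enzalutamide gave a smaller response. Enza + Dex 10 nM called 139 genes against Enza (1.08%), 115 higher (0.892%) and 24 lower (0.186%). Over the genes called at 100 nM, the median log2 change at 10 nM was 0.36 for those higher and -0.23 for those lower, with the same Enza arrays in both. The direct comparison of the doses called 66 genes (0.512%), 61 higher at 100 nM (0.473%) and 5 lower (0.0388%). Over the 3 doses SGK1 was at 5.64 ± 0.32 with Enza, 10.08 ± 0.04 with 10 nM and 11.99 ± 0.04 with 100 nM (SD, n = 3 each), and 100 nM exceeded 10 nM by 1.91 ± 0.12 (SE, limma adjusted p = 4.12e-09). ERRFI1 was at 9.07 ± 0.07, 10.16 ± 0.12 and 11.44 ± 0.12 in the same order, a difference of 1.28 between the doses (limma adjusted p = 1.71e-08).

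**Figure D5:**
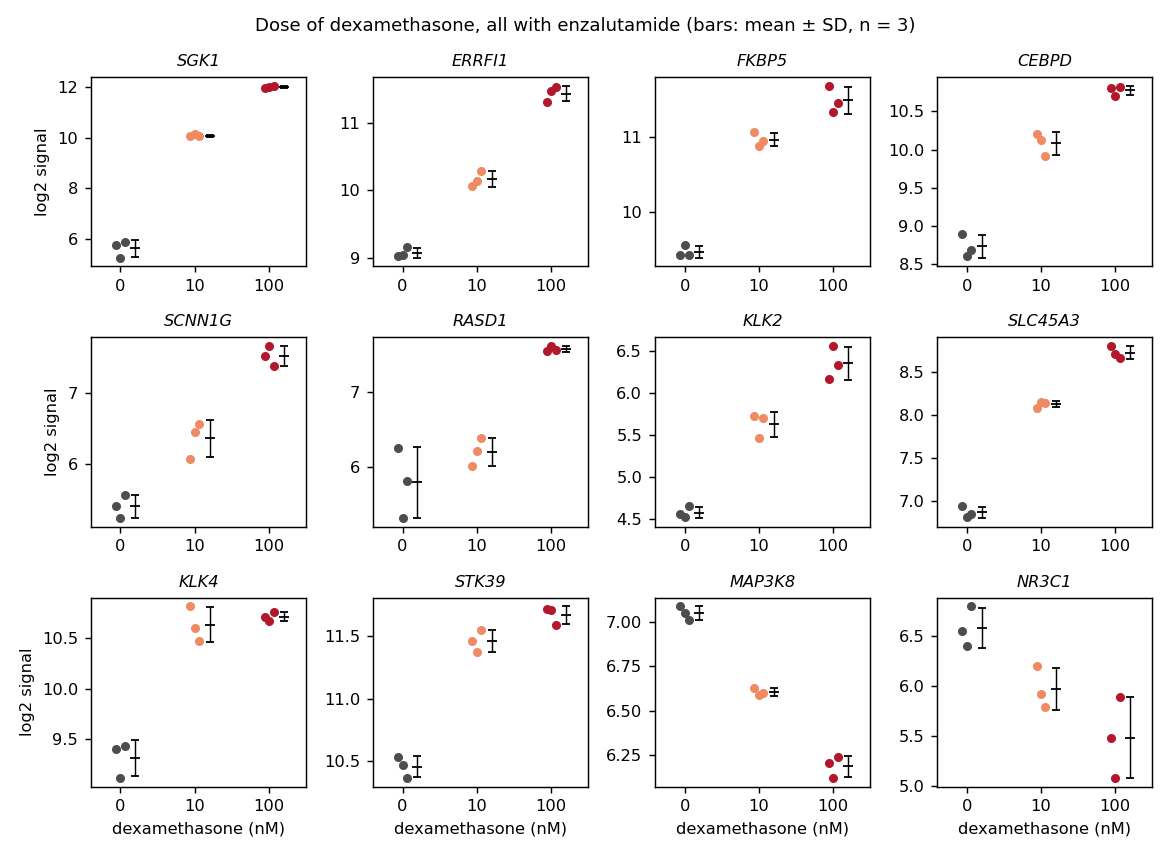
Normalized log2 signal under enzalutamide without dexamethasone and with 10 and 100 nM, for 12 genes, with every array as a point and bars for the mean ± SD (n = 3). SGK1 and ERRFI1 climb at each step, RASD1 stands apart mainly at 100 nM, KLK4 is alike at both doses, and MAP3K8 and NR3C1 decline; the signal axis differs between panels and does not start at 0.

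Genes differed in which dose moved them. RASD1 was at 6.01, 6.21 and 6.39 at 10 nM, within 0.41 of Enza (limma adjusted p = 0.45), and was higher by 1.37 at 100 nM than at 10 nM. ACTA2 changed by 0.24 at 10 nM and was higher by 0.94 at 100 nM than at 10 nM (limma adjusted p = 6.6e-05), and DUSP1 changed by 0.13 and was higher by 0.67. PNLIP was higher by 1.68 at 100 nM than at 10 nM, where it was detected on 1 of 3 arrays. SNAI2 was undetected on all 3 arrays at 10 nM and was higher at 100 nM by at least 2.88-fold (limma adjusted p = 1.54e-10). PNLIP and SNAI2 were also called higher at 10 nM than with Enza, each by 0.42 (limma adjusted p = 0.0377 and 0.00532), at signals near or below the detection limit. KLK4 was at 9.32 ± 0.18 with Enza, 10.63 ± 0.17 at 10 nM and 10.71 ± 0.04 at 100 nM, with 0.08 between the doses (SD, n = 3 each; limma adjusted p = 0.967). PER2 had changes of 0.70 at 10 nM and 0.67 at 100 nM, and SLC2A12 of 1.03 and 0.95. FKBP5 was higher by 0.53 at 100 nM than at 10 nM (limma adjusted p = 0.00207).

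The 5 genes lower at 100 nM than at 10 nM were MAP3K8, the sphingomyelin synthase SGMS1, the phosphatase CTDSP2, the sulfur dioxygenase ETHE1, and CCDC93. The log2 difference was -0.42 for MAP3K8, -0.39 for SGMS1, -0.33 for CTDSP2 and -0.41 for CCDC93. ETHE1 was undetected on all 3 arrays at 100 nM and was detected on 2 of 3 at 10 nM, so its difference is only a bound, at least 1.01-fold. Each lost its call without some of the 6 arrays, with the largest limma adjusted p at 0.107 for MAP3K8, 0.115 for SGMS1, 0.159 for CTDSP2, 0.193 for ETHE1 and 0.24 for CCDC93. For ETHE1 any of the 6 arrays did this. For MAP3K8 and CTDSP2 it was any but Enza + Dex 100 nM replicate 3, for CCDC93 any but Enza + Dex 10 nM replicate 3, and for SGMS1 replicate 2 of either group or Enza + Dex 100 nM replicate 3. With Enza + Dex 100 nM replicate 2 left out, 36 genes were called between the doses, 43 without Enza + Dex 10 nM replicate 1 and 42 without Enza + Dex 10 nM replicate 3.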

How the data were processed

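Gene expression was measured on Illumina beadchips, 1 array per culture. The deposited signal intensity is the mean bead brightness of each probe without normalization between arrays, and the deposited detection p-value sets it against negative control beads, per the file headers; GenomeStudio, version not given in the sources used here, produced both, per the submitters' processing notes. The deposited normalized intensity table, whose method is not stated, served as an alternative. Signals were background-corrected by normexp with parameters inferred from the detection p-values (offset 16), then quantile normalized and log2-transformed with limma 3.58.1 in R 4.3.3.

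Probes stayed in when 3 or more arrays detected them at p under 0.05. Of 47323 probes, 30113 had 1 gene symbol in the platform annotation, 8 several and 17202 none; Entrez identifiers of 30074 probes matched RefSeq, and 0 symbols changed. The brightest probe, by its mean over all 24 arrays, stood for each gene, which left 12895 genes. A linear model of the 8 groups took in all 24 arrays (lmFit, eBayes, two-sided), with Benjamini-Hochberg adjustment over all genes within a comparison. Values after ± are standard errors unless named SD. Where a gene's probe was undetected on all 3 arrays of a group, the fold is a bound, "at least N-fold", set against each array's lowest detected signal, or the probe's own where that was higher. The 3 arrays per group limit the precision.

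Named genes are the 15 largest rises and 15 largest falls called without overlap of the groups, a fixed set of hormone-response genes, up to 4 called members of each list, and the 5 largest each way in the other comparisons. The comparison, the lists and this rule were chosen with earlier results of these data known, and the comparison with Enza + DHT 1 nM was added later still. Replicate numbers only name arrays. Alternatives changed the background correction, normalization, source table, detection filter, probe choice, arrays in the fit, spread model, array weights, a block and each array in turn. The procedure was tested on simulated data with changes placed only in bright probes and with independent noise. That test says nothing about genes near the detection limit.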

Additional observations from a re-analysis of the deposited data

Results flagged for a closer look

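Probes with no gene symbol in the annotation table were left out of every gene comparison, and a separate fit took in all probes past the detection filter. Of 7012 such probes, 45 were higher with Enza + Dex 100 nM than with Enza (limma, adjusted over all probes fitted), which is 0.642%, against 1.79% of the probes with 1 symbol, and 16 were lower. The largest of these rises was 2.22 on the log2 scale. They drew attention because the signal lies in data that no comparison above uses. They are unnamed here, and what they measure was not tested.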

How the results depend on the processing

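Fitting only the arrays compared called 168 genes for Enza + Dex 100 nM against Enza (164 of them among the 439), 8 between the doses and 152 against Enza + DHT 1 nM; this fit has fewer samples. Against Enza, named genes that lost their calls in that fit included PER1, TEF, SCNN1A, GRHL2, RTN4R, SMAD6, IL6R and DNAJB9. Median scaling over all probes gave 288 against Enza (286 shared) and 28 between the doses. Leaving out 1 array gave 305 to 352 against Enza, 36 to 52 between the doses, 284 to 320 against Enza + DHT 1 nM, and 0 to 1 both against Dex 100 nM and for the difference in response. Against Dex 100 nM, median scaling over the genes tested called 1 gene (SLC14A1), the deposited values called 1 (PTX4) and the intensity trend called 2 (PDE4C and ZNF738); without Enza + Dex 100 nM replicate 2 it was LOC105379183, without replicate 3 of that group DBP, and without Dex 100 nM replicate 3 SPHK1. For the difference in response the deposited values called 2 (PATE1 and PHACTR1), and leaving out vehicle replicate 1 called ASF1A. These genes were named after their values were seen, and the cause was not tested. No direction reversed in 1763 pairs of a named gene and an alternative; 177 pairs lost the call and 1 gained it (NR4A2). The labels give no replicate numbers. A replicate block by the leading digits of the running sample numbers in the titles gave 542 calls against Enza (433 shared), 73 between the doses, 483 against Enza + DHT 1 nM and 0 for the other comparisons. Deviations of Enza + Dex 100 nM and Enza arrays in the same block correlated at 0.157, 0.0473 and 0.155. Over pairs of arrays from all groups the mean was 0.0771 in the same block and -0.0385 in different blocks. The 3 values were low and uneven, so the title numbers served only as an alternative block and not as a pairing. A slide block was not run because the columns name no slide. Genes near the detection limit, such as KLK3, could not be followed.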
